A study of Homo sapiens with 3 samples.

Results

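The genes described here carry the names of families of RNA-binding proteins and kinases. Many members help decide which exons a pre-mRNA keeps, and others, above all among the RBM genes, have other roles. All gene symbols that start with HNRNP, or with SRSF, SRPK, CLK or RBM followed by a digit, were taken, and read-through symbols that hold a hyphen were not. This gave 77 of the 16793 gene symbols, namely 12 SRSF, 3 SRPK, 4 CLK, 23 HNRNP and 35 RBM genes. The rule used names alone, but it was set with earlier results of these data known. Levels are in FPKM, a read number scaled by transcript length and library size. Of the 77 genes, 71 averaged at least 1 FPKM over the 3 libraries, the limit used for the counts below, and the other 6 are given separately.

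The cells were H446, an established human small cell lung cancer line. They received vehicle, or 3-bromoascochlorin (BAS) at 5 µM or 10 µM, and RNA was isolated 48 h later. BAS is a brominated form of the fungal metabolite ascochlorin. The study's title concerns antitumor effects and the MAPK pathway, so each dose was set against vehicle and the higher dose against the lower. Each of the 3 groups has 1 library, so the spread between replicates is unknown and nothing below carries a p-value.

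SR proteins, made by the SRSF genes, carry domains rich in arginine and serine, bind exons and mostly favour their inclusion. The hnRNP proteins coat nascent RNA and often oppose them. SRPK kinases phosphorylate SR proteins in the cytoplasm, which brings them into the nucleus, and CLK kinases phosphorylate them further inside the nucleus. RBM is a looser name for proteins with an RNA-binding motif, which range from spliceosome subunits to factors of RNA methylation and decay. Many SR and hnRNP genes limit their own output by splicing in an exon with an early stop codon, so that the RNA is degraded. The files hold 1 value per gene, so such RNA forms cannot be told from the productive ones. In bulk RNA, fewer cells that express a gene and less RNA per cell cannot be told apart either.

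All values of a library summed to between 487923 and 507342 FPKM, the read depth is unknown, and 11512 genes passed the limit on the mean. The order of values below is vehicle, 5 µM BAS and 10 µM BAS wherever 3 values follow each other. All 8 neuroendocrine markers analysed were at 1 FPKM or more in each library, with sums of 431.04, 457.2 and 519.62 FPKM, among them NEUROD1 at 104.96, 93.15 and 91.62 FPKM. The lowest with vehicle was CHGA, a granule protein gene, at 1.91, 4 and 6.41 FPKM. The leukocyte markers summed to at most 2.32 FPKM and the tuft-like ones to at most 0.21 FPKM, with ASCL2 listed at 0 under either dose. The epithelial markers summed to 8.49, 2.03 and 2.42 FPKM. The fibroblast markers summed to 750.31, 932.49 and 923.41 FPKM, nearly all from 3 collagen genes, with DCN at most at 0.31 FPKM. The endothelial markers summed to 58.12, 56.28 and 52.46 FPKM, nearly all from CDH5. The part of these markers in the differences below was not tested.

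The promoters of the gene furthest below vehicle at 10 µM in the SRSF, HNRNP and RBM families, and of the CLK gene furthest above it, are shown so that the genes at the ends of the range can be compared in sequence. They are RefSeq windows on GRCh38.p14, from 250 bases before to 50 bases after the gene start. Capitals mark the CCAAT box (CCAAT), the GC box (GGGCGG) and the E-box (CACGTG), each on either strand, as a match of letters only.
SRSF3, chr6:36594112-36594411, plus strand: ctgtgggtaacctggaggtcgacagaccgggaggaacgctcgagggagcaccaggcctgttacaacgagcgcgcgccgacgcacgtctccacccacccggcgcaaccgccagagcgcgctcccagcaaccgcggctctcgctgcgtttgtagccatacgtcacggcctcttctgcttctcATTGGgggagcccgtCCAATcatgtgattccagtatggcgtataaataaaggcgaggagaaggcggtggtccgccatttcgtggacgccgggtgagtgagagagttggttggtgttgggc
HNRNPH2, chrX:101407972-101408271, plus strand: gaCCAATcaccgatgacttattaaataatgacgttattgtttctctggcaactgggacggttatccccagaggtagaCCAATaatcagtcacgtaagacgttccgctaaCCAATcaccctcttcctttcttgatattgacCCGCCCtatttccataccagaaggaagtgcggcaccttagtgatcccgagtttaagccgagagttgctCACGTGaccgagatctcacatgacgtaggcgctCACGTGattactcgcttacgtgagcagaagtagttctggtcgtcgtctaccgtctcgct
RBM3, chrX:48574234-48574533, plus strand: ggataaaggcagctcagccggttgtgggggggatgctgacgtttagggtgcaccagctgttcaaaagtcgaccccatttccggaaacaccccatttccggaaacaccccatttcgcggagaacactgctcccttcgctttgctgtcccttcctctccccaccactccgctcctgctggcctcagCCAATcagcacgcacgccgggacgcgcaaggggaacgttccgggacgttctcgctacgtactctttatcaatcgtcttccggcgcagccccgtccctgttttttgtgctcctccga
CLK1, chr2:200864609-200864908, minus strand: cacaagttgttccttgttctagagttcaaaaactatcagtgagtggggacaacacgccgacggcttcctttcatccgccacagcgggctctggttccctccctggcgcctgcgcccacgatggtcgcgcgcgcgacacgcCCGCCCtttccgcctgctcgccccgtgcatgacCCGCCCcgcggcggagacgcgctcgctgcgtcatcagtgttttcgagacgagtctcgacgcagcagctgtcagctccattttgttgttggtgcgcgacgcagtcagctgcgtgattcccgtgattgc
The SRSF3 window held a pair of CCAAT boxes and neither of the other motifs, and the CLK1 window held GC boxes only. The HNRNPH2 window held all 3 motifs and the RBM3 window 1 CCAAT box. At least 1 window was found for 66 of the 71 genes, and 86 in all. The CCAAT box was in 61.3% of 31 HNRNP windows, 53.3% of 30 RBM windows, 21.4% of 14 SRSF windows, 1 of 6 CLK windows and 0 of 5 SRPK windows, against 34.6% of all 35116 promoter windows and 34.8% of those of measured genes. The E-box was in 25.8% of HNRNP, 10% of RBM and 0% of SRSF windows, in 2 of 6 CLK windows and in 0 of 5 SRPK windows, against 7.26% of all windows and 9.52% of those of measured genes. The GC box was in 71% of HNRNP, 60% of RBM and 42.9% of SRSF windows, in 5 of 6 CLK windows and in 2 of 5 SRPK windows, against 45% of all windows and 66.8% of those of measured genes. Of the other motifs searched on both strands, the ETS site CCGGAAGT was in 8 of the 86 windows (9.3%), against 4.14% of all windows and 7.86% of those of measured genes. The cAMP response element TGACGTCA was in 3 windows (3.49%), all of RBM genes, against 1.85% and 2.89%. The C/EBP-ATF element TGATGNAA was in 0 of 86 windows, against 3.62% and 1.95%. No motif holds another, though matches can share end bases, and the windows of the 14 genes with more than 1 can overlap. The 31 HNRNP windows come from 20 genes and the 5 SRPK windows from 2, so these are shares of windows and not of genes.

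Most SRSF, SRPK and HNRNP genes were lower after BAS than with vehicle, CLK1 and CLK3 were higher, and RBM genes lay on both sides. Differences are log2(FPKM + 1) with BAS minus vehicle, which makes the difference of a low gene look smaller than it is, and ratios are plain FPKM ratios. At 10 µM the median difference was -0.33 for 12 SRSF genes, -0.38 for 2 SRPK genes, 0.19 for 4 CLK genes, -0.28 for 21 HNRNP genes and -0.04 for 32 RBM genes, against 0.05 for all 11512 measured genes. At 5 µM the same medians were -0.23, -0.37, 0.14, -0.19 and -0.04, against 0.02 for all measured genes. These 5 medians kept their sign at both doses under all alternatives run, but the CLK median was 0.26 at 5 µM and 0.53 at 10 µM with a limit of 5 FPKM, which removes CLK4. The doses share 1 vehicle library, so they do not repeat each other independently.

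**Figure D1:**
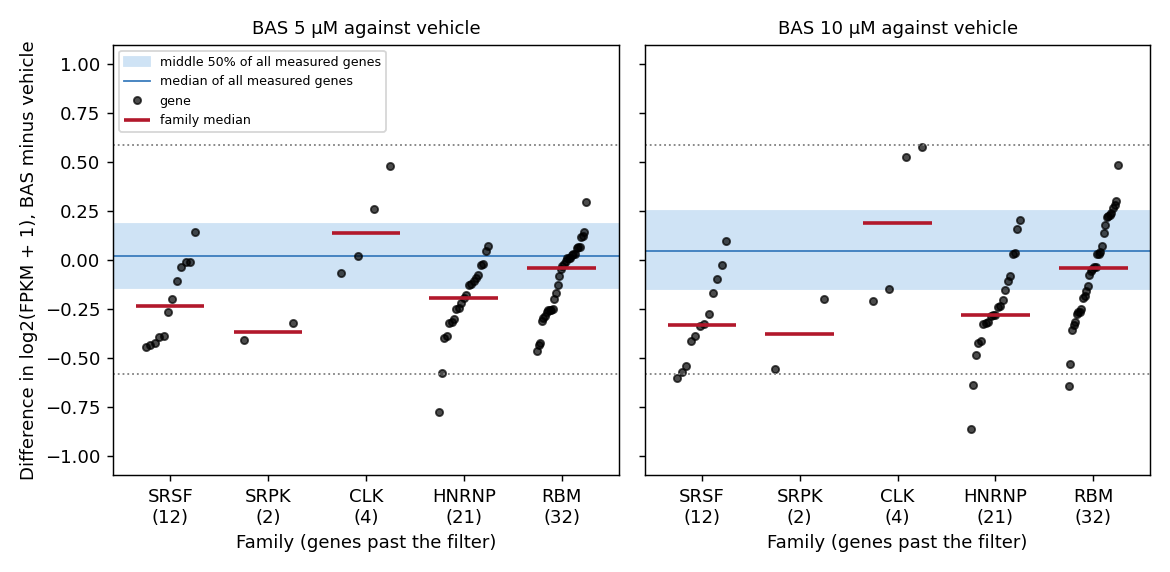
Difference in log2(FPKM + 1) of each gene past the limit (points), by family, for BAS 5 µM (left) and BAS 10 µM (right) minus vehicle, with the family median (red line), the median (blue line) and the middle 50% (band) of all 11512 measured genes, and dotted lines at a 1.5-fold difference. The SRSF medians of -0.23 and -0.33 and the HNRNP medians of -0.19 and -0.28 lie below the band, while CLK1 and CLK3 lie above it at both doses.

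By size the differences were modest. At 10 µM, 0 of the 71 genes were at least 2-fold higher, against 1.31% of all measured genes, and 0 were at least 2-fold lower, against 0.643%. At least 1.5-fold lower were 4 genes, HNRNPH2, RBM3, HNRNPA1 and SRSF3 (5.63% of 71, against 3.44% of all measured genes), and 0 were at least 1.5-fold higher, against 6.04%. Over the alternatives run, 3 to 8 genes were at least 1.5-fold lower, with 8 under median-ratio scaling. Below vehicle by any amount were 50 of 71 genes, against 43.3% of all measured genes, and above it 21, against 56.5%. By family, 11 of 12 SRSF, 2 of 2 SRPK, 2 of 4 CLK, 17 of 21 HNRNP and 18 of 32 RBM genes were below vehicle. Among the lowest 10.0% of all measured differences were 5 SRSF, 1 SRPK, 5 HNRNP and 3 RBM genes, and among the highest 10.0% were 2 CLK genes and 1 RBM gene.

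At 5 µM, again 0 of 71 genes were at least 2-fold higher, against 0.539% of all measured genes, and 0 at least 2-fold lower, against 0.208%. At least 1.5-fold lower was HNRNPH2 alone (1.41% of 71, against 1.6% of all measured genes), or 2 genes with median-ratio scaling or a common total. At least 1.5-fold higher were 0 genes, against 3.01%. Below vehicle were 52 of 71 genes, against 46.6% of all genes, and above it 19, against 53.2%. By family the genes below vehicle were 11 of 12 SRSF, 2 of 2 SRPK, 1 of 4 CLK, 19 of 21 HNRNP and 19 of 32 RBM genes. The lowest 10.0% of all differences held 18 of the 71 genes at 5 µM and 14 at 10 µM.

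Taking the 3 libraries together, the vehicle library was the highest in 47 of the 71 genes, against 36.4% of all measured genes, and the lowest in 16, against 46.3%. It was the highest in 11 of 12 SRSF, 2 of 2 SRPK, 1 of 4 CLK, 17 of 21 HNRNP and 16 of 32 RBM genes. The 10 µM library was the lowest in 36 genes, against 27.6%, and the highest in 19, against 42.9%. Of those 19, 0 were SRSF or SRPK genes, 2 were CLK, 4 were HNRNP and 13 were RBM genes.

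Among the SRSF genes, SRSF3, SRSF7 and SRSF1 had the lowest differences at 10 µM. SRSF3, whose protein also takes part in mRNA export, measured 136.05 FPKM with vehicle, 100.22 at 5 µM BAS and 89.09 at 10 µM BAS. SRSF7, a close relative of SRSF3 that also shuttles to the cytoplasm, measured 138.04, 102.52 and 92.36 FPKM. SRSF1, the prototype SR protein gene and a known oncogene, measured 80.77, 61.27 and 55.18 FPKM. In all 3 genes the vehicle library was highest and the 10 µM library lowest. At 10 µM the ratios to vehicle were 0.655 for SRSF3, 0.669 for SRSF7 and 0.683 for SRSF1, and the log2 differences of -0.61, -0.57 and -0.54 stood at percentiles 3.14, 3.67 and 4.21 of all measured genes. SRSF1 shares 59% of the 50-base sequences of its longest coding transcript with other annotated genes, so its value is less certain than those of SRSF3 (0.863%) and SRSF7 (0%).

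SRSF2, which had the highest level of the family, measured 198.32, 164.5 and 151.34 FPKM, a log2 difference of -0.39 at 10 µM. It shares 29.5% of its 50-base sequences with the gene MFSD11. SRSF10, which can repress splicing when dephosphorylated, measured 39.11, 29.63 and 29.1 FPKM. SRSF11 measured 70.18, 51.32 and 55.36 FPKM. Vehicle was the highest library for these genes, and SRSF11 was lower at 5 µM than at 10 µM. SRSF4 measured 54.29, 47.14 and 43.1 FPKM. SRSF5 measured 81.33, 79.27 and 66.88 FPKM. SRSF5 was thus near vehicle at 5 µM and lower at 10 µM.

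The remaining SRSF genes were close to vehicle. SRSF6 measured 33.31, 30.8 and 29.51 FPKM. SRSF9 measured 128.27, 127.12 and 119.73 FPKM, and shares 38.9% of its 50-base sequences with the gene GATC. SRSF12 measured 2.39, 2.37 and 2.33 FPKM, and it stood above vehicle by 0.10 at 5 µM and by 0.01 at 10 µM, on the log2 scale, once trends in GC and length were taken out. These values leave SRSF12 with no clear direction. SRSF8, a gene that arose as a retrotransposed copy, measured 7.77, 8.68 and 8.37 FPKM and was the SRSF gene above vehicle at both doses in the values as deposited. The family summed to 969.83, 804.84 and 742.35 FPKM, or 0.199%, 0.159% and 0.151% of all summed values.

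Among the kinases that act on SR proteins, the SRPK genes past the limit were below vehicle at both doses. The CLK genes lay on both sides of it. SRPK1 measured 31.37 FPKM with vehicle, 24.86 at 5 µM BAS and 27.14 at 10 µM BAS. SRPK2 measured 20.12, 14.89 and 13.33 FPKM. Both were highest with vehicle, and SRPK2 at 10 µM was at 0.663 times vehicle, percentile 3.91 of all measured genes. By this plain ratio SRPK2 was past 1.5-fold. Its log2(FPKM + 1) difference of -0.56 was not, so it is not among the genes counted as 1.5-fold lower. SRPK3, a muscle kinase gene, was under the limit, with 0.19 FPKM in the vehicle library, and was listed at 0 under either dose.

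CLK1, which phosphorylates SR proteins in nuclear speckles, measured 10.92 FPKM with vehicle, 13.27 at 5 µM BAS and 16.75 at 10 µM BAS. CLK3, a kinase of the same family, measured 17.63, 24.98 and 25.87 FPKM. Vehicle was the lowest library for both genes, and CLK1 differed between the doses by more than CLK3. At 10 µM CLK1 was at 1.53 times and CLK3 at 1.47 times vehicle, and the log2 differences of 0.57 and 0.53 stood at percentiles 93.6 and 92.2. CLK1 passed the 1.5-fold limit at 10 µM with a pseudocount of 0.5 or 0.1 in place of 1. CLK2 measured 30.41, 30.83 and 26.2 FPKM, and its sign at 5 µM turned with each rescaling. CLK4 measured 2.53, 2.37 and 2.18 FPKM, and was 0.02 above vehicle at 5 µM, on the log2 scale, with GC and length trends taken out. At 10 µM 2 CLK genes were thus above and 2 below vehicle.

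**Figure D2:**
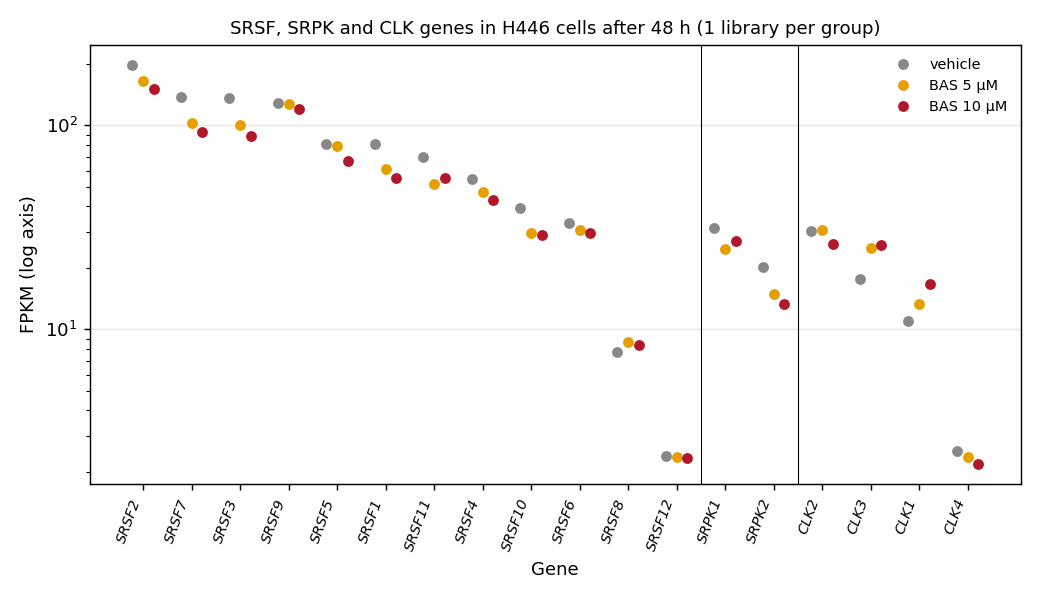
FPKM on a log axis of the SRSF, SRPK and CLK genes past the limit, in the vehicle (grey), BAS 5 µM (orange) and BAS 10 µM (red) library, with 1 library per group and vertical lines between the families. SRSF2, SRSF7, SRSF3 and SRSF1 are lowest at 10 µM, and CLK1 is highest there, at 10.92, 13.27 and 16.75 FPKM over the 3 libraries.

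The HNRNP genes had the highest summed level of the families, and their most abundant members were lower after BAS. HNRNPA1, a splicing repressor gene, measured 1218.81 FPKM with vehicle, 925.41 at 5 µM BAS and 781.49 at 10 µM BAS. It made up 27.1%, 25.1% and 22.4% of the summed HNRNP values. HNRNPA2B1, whose proteins bind RNA much as HNRNPA1 does, measured 498.57, 333.31 and 355.33 FPKM. Both were highest with vehicle, and HNRNPA2B1 was lower at 5 µM than at 10 µM. At 10 µM the ratio to vehicle was 0.641 for HNRNPA1 and 0.713 for HNRNPA2B1. HNRNPA1 shares 29.1% of its 50-base sequences with other annotated genes and HNRNPA2B1 0%. The copy HNRNPA1L2, which shares 58.5%, measured 6.11, 5.75 and 5.03 FPKM.

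Of the other A- and B-type genes, HNRNPA3 measured 118.4, 110.96 and 106.23 FPKM. HNRNPAB measured 207.33, 189.29 and 192.47 FPKM. HNRNPA0 measured 75.91, 74.63 and 71.64 FPKM, and was 0.15 and 0.06 above vehicle at 5 and 10 µM, on the log2 scale, with GC and length trends taken out. All 3 stood closer to vehicle than HNRNPA1 and HNRNPA2B1.

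HNRNPC, known for binding uridine tracts, measured 356.84, 300.58 and 267.7 FPKM. HNRNPK, which binds cytidine-rich RNA, measured 316.88, 277.21 and 259.6 FPKM. HNRNPD, which takes part in the decay of AU-rich mRNAs, measured 255.59, 225.98 and 204.42 FPKM. These genes were highest with vehicle and lowest at 10 µM, as were the next 3. HNRNPDL, a relative of HNRNPD, measured 70.02, 60.04 and 57.43 FPKM. HNRNPM measured 194.26, 163.05 and 155.92 FPKM. HNRNPR measured 145.08, 117.49 and 115.56 FPKM.

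Within the H and F group, which binds runs of guanosines, the genes differed from each other. HNRNPH2 measured 10.21 FPKM with vehicle, 5.53 at 5 µM BAS and 5.15 at 10 µM BAS, and had the lowest difference of the 71 genes at both doses, -0.78 and -0.87. HNRNPH1, its far more abundant paralog, measured 201.33, 153.27 and 165.59 FPKM. HNRNPF measured 98.91, 79.11 and 73.56 FPKM. Vehicle was the highest library for these 3 genes. HNRNPH3 measured 92.99, 86.31 and 95.25 FPKM, and its small positive difference at 10 µM turned negative with median-ratio scaling and quantile normalization. HNRNPH2 shares 15% of its 50-base sequences with other genes, most of them with the read-through transcript RPL36A-HNRNPH2, and HNRNPH1 shares 0.665%.

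Paralogs also parted in the L and U groups. HNRNPL, which binds CA repeats, measured 267.23, 244.87 and 225.68 FPKM. HNRNPLL, a regulator of CD45 splicing in lymphocytes, measured 26.63, 27.56 and 30.81 FPKM, the largest positive difference of the family at 10 µM (0.20). HNRNPU, a nuclear scaffold protein gene, measured 145.94, 116.43 and 126.36 FPKM. HNRNPL and HNRNPU were highest with vehicle, and HNRNPLL was highest at 10 µM. HNRNPUL2 measured 38.4, 40.36 and 42.91 FPKM. HNRNPUL1 measured 150.79, 148.6 and 153.79 FPKM, and its sign at 10 µM turned with median-ratio scaling. HNRNPUL2 shares 45.2% of its 50-base sequences with the read-through transcript HNRNPUL2-BSCL2, and HNRNPL shares 32.3% with other genes, so both values are less certain. Under the limit, HNRNPCL1 measured 0.19, 0.15 and 0.14 FPKM, and HNRNPCL2 had 0.09 FPKM at 5 µM and was listed at 0 otherwise. The family summed to 4496.42, 3685.98 and 3492.06 FPKM, or 0.922%, 0.727% and 0.71% of all summed values.

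**Figure D3:**
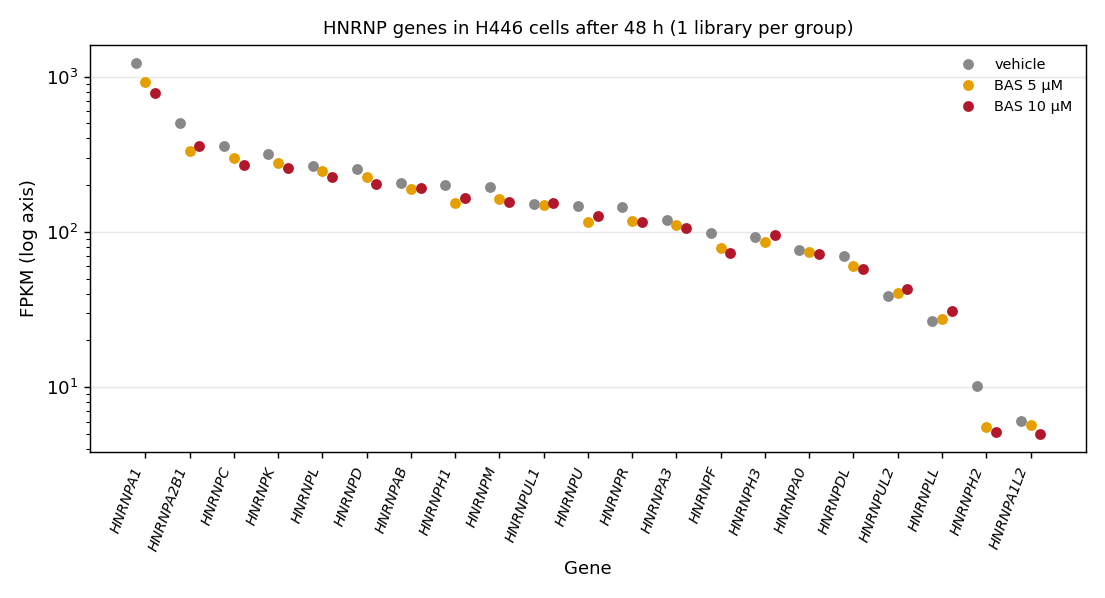
FPKM on a log axis of the 21 HNRNP genes past the limit, ordered by their level with vehicle, in the vehicle (grey), BAS 5 µM (orange) and BAS 10 µM (red) library, with 1 library per group. The genes of the highest level are highest with vehicle, HNRNPH2 is at 10.21, 5.53 and 5.15 FPKM, and HNRNPUL2 and HNRNPLL are highest at 10 µM.

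The RBM genes, which share little beyond a name and a domain, had no common direction. RBM3, a cold-inducible RNA-binding protein gene, measured 140.54 FPKM with vehicle, 122.4 at 5 µM BAS and 89.45 at 10 µM BAS. It had the highest level of the family with vehicle and the lowest difference at 10 µM, -0.65, a ratio of 0.636. The difference of 10 µM minus 5 µM was -0.45 for RBM3, percentile 0.869 of all measured genes.

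RBM genes of RNA modification, decay and nuclear bodies had these values. RBM15B, an adaptor gene of the m6A methylation complex, measured 18.06, 13.2 and 12.2 FPKM. Its paralog RBM15 measured 6.1, 4.77 and 5.88 FPKM. RBM15B was thus lowest at 10 µM, while RBM15 was lowest at 5 µM and near vehicle at 10 µM. RBM26, whose protein links polyadenylated nuclear RNA to the exosome, measured 7.56, 5.21 and 5.79 FPKM. RBM27, its paralog, measured 13.64, 11 and 11.08 FPKM, but shares 45.2% of its 50-base sequences with another annotated gene, so its value is less certain. RBM33 measured 5.79, 4.68 and 4.44 FPKM. Vehicle was highest for all 3 genes. RBM7, a subunit of the nuclear exosome targeting complex, measured 6.52, 6.1 and 5.86 FPKM. RBM14, a paraspeckle protein gene, measured 23.08, 16.84 and 17.76 FPKM.

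Of the RBM genes of the splicing machinery, some were below and some above vehicle. RBM39, a relative of the splice-site factor U2AF2, measured 63.8, 53.36 and 53.37 FPKM. RBM17, which takes part in the choice of 3' splice sites, measured 20.39, 16.21 and 18.16 FPKM. RBM25, which works with the U1 snRNP, measured 39.24, 32.64 and 38.25 FPKM. These genes were highest with vehicle, RBM25 by little at 10 µM. RBM22, a subunit of the catalytic spliceosome, measured 36.48, 40.34 and 44.01 FPKM. RBM8A, a core subunit of the exon junction complex, measured 27.87, 29.13 and 32.9 FPKM. RBM48, of the minor spliceosome, measured 7.14, 7.3 and 8.2 FPKM. In these 3 genes the 10 µM library was highest. RBM42 measured 63.37, 64.84 and 61.67 FPKM, on both sides of vehicle.

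The related regulators RBM5, RBM6 and RBM10 did not share a direction. RBM5, a tumor suppressor candidate gene, measured 18.34, 19.26 and 19.35 FPKM. RBM6, its neighbour in the genome, measured 21.55, 20.81 and 23.82 FPKM. RBM10 measured 42.63, 41.64 and 35.27 FPKM. At 10 µM RBM5 and RBM6 were thus above and RBM10 below vehicle. RBM4 measured 66.18, 65.85 and 63.48 FPKM, and shares 31.3% of its 50-base sequences with other genes, mostly with RBM4B. RBM4B measured 9.95, 10.9 and 12.5 FPKM. RBM23, a relative of RBM39, measured 40.81, 42.72 and 42.05 FPKM. RBM4B and RBM23 were lowest with vehicle and RBM4 was highest.

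RBM38, a p53-induced regulator of mRNA stability, had the largest positive difference of the RBM genes at both doses. It measured 17.48 FPKM with vehicle, 21.65 at 5 µM BAS and 24.84 at 10 µM BAS. The log2 difference of 0.48 at 10 µM stood at percentile 90.5 of all measured genes, and was 0.33 with GC and length trends taken out. RBM24, known from heart and muscle splicing, measured 11.99, 12.09 and 14.78 FPKM. RBM18 measured 9, 9.08 and 10.79 FPKM. Both were near vehicle at 5 µM, with a sign that turned under other scalings, and above it at 10 µM. RBM20, a heart splicing regulator gene, measured 2.06, 2.08 and 2.12 FPKM. RBM34 measured 34.05, 37.05 and 39.95 FPKM, and 82.1% of its 50-base sequences are found in other annotated genes on either strand, so its value is uncertain.

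Of the rest, RBM28 and RBM19, both of ribosome assembly, were below vehicle, with RBM28 at 23.94, 21.17 and 20.79 FPKM and RBM19 at 9.61, 8.72 and 8.34 FPKM. RBM12 measured 25.01, 24.6 and 29.32 FPKM. RBM12B measured 8.35, 6.85 and 7.87 FPKM, and shares 37.8% of its 50-base sequences with other genes. Both were lowest at 5 µM. Under the limit, RBM43 measured 0.04, 0.06 and 0.17 FPKM. RBM44 had 0.03 and 0.01 FPKM in the first pair of libraries and was listed at 0 at 10 µM. RBM47 had 0.02 FPKM with vehicle and was listed at 0 under either dose. The RBM family summed to 829.96, 781.06 and 772.94 FPKM.

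**Figure D4:**
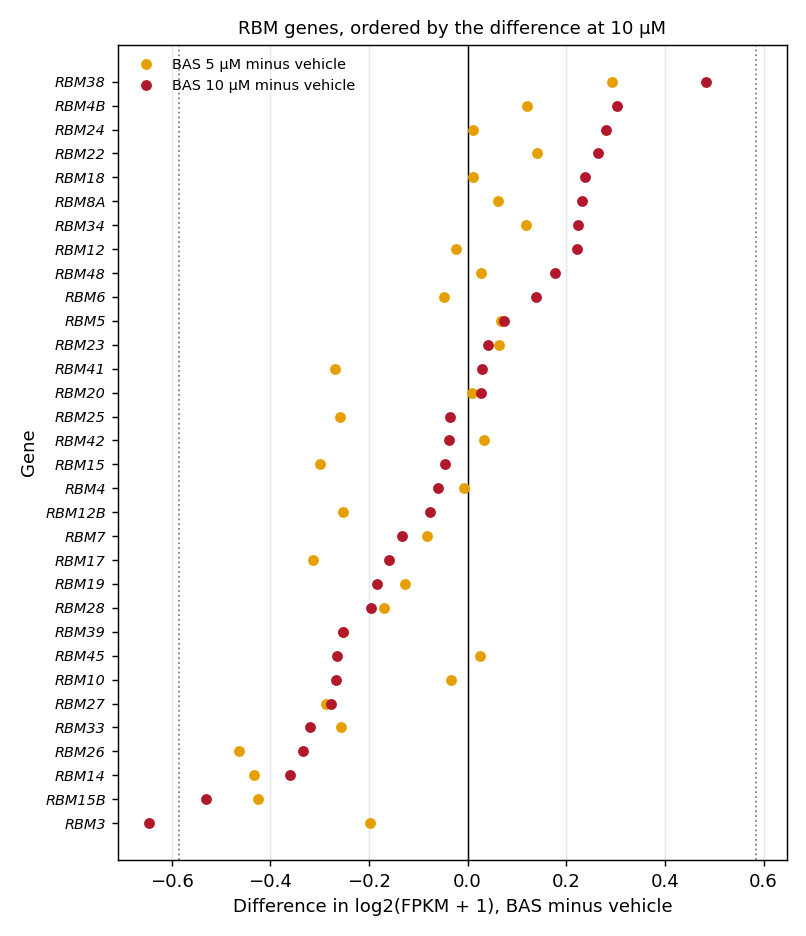
Difference in log2(FPKM + 1), BAS minus vehicle, of the 32 RBM genes past the limit at 5 µM (orange) and 10 µM (red), ordered by the difference at 10 µM, with dotted lines at a 1.5-fold difference. The genes span -0.65 (RBM3) to 0.48 (RBM38) at 10 µM, and RBM3, RBM41, RBM45, RBM24 and RBM15 lie furthest apart between the doses.

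Between the doses the SRSF genes were nearly all lower at 10 µM, and the RBM genes divided much as all measured genes did. The 10 µM library was below the 5 µM library in 11 of 12 SRSF, 1 of 2 SRPK, 2 of 4 CLK, 13 of 21 HNRNP and 11 of 32 RBM genes. This makes 38 of 71 genes, against 41.0% of all measured genes, and 33 were above it, against 58.6%. The median difference of 10 µM minus 5 µM was -0.10 for SRSF, -0.06 for HNRNP and 0.09 for RBM genes, against 0.04 for all measured genes. It was -0.01 for SRPK and -0.02 for CLK genes, and both of these changed sign under other settings. At least 1.5-fold higher were 0 of 71 genes, against 0.434% of all genes, and at least 1.5-fold lower 0, against 0.408%. At a 2-fold limit the count was 0 each way, against 0.0434% each way. CLK1, at 0.31, had the largest positive difference between the doses, followed by RBM41 at 0.30, which measured 4.54, 3.6 and 4.65 FPKM. RBM3 had the lowest, followed by RBM45 at -0.29, which measured 4.8, 4.9 and 3.83 FPKM.

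Annotation that the choice of genes did not use also differed between the families. In GENCODE 29, 12 of 12 SRSF genes and 2 of 2 SRPK genes have at least 1 transcript marked for nonsense-mediated decay, the route that removes RNA with an early stop codon. The count was 3 of 4 for CLK, 13 of 21 (61.9%) for HNRNP and 13 of 32 (40.6%) for RBM genes, against 43.4% of the 11363 measured genes with a matched transcript. Transcripts with a retained intron were listed for 9 of 12 SRSF (75%), 14 of 21 HNRNP (66.7%) and 17 of 32 RBM genes (53.1%), against 57.8% of all. CLK2 was the CLK gene with neither kind. CLK1 and CLK3, above vehicle at both doses, have 8 retained-intron transcripts each, and CLK4, below it at both, has 7. The longest coding transcripts of SRSF and HNRNP genes had a median GC content of 41.1% and 42.3%, against 48.5% for all measured genes. With trends in GC and length taken out, the median differences at 10 µM were -0.33 for SRSF and -0.26 for HNRNP genes.

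Other genes of splicing were mostly lower after BAS, with medians nearer to 0 than those of the SRSF and HNRNP genes at 10 µM. From each list below, the 4 genes with the largest difference at 10 µM, in either direction, are named. They were picked by size and do not stand for their list as a whole. Of 42 core spliceosome genes, 28 stood below vehicle at 5 µM BAS and 30 at 10 µM BAS, against 46.6% and 43.3% of all measured genes, and the median differences were -0.08 and -0.10. At 10 µM 2 of the 42 were at least 1.5-fold lower, against 3.44% of all measured genes, and 0 at least 1.5-fold higher, against 6.04%. SNRPA, a U1 snRNP protein gene, measured 106, 81.02 and 64.05 FPKM. SF3B3, a subunit of the complex that holds the branch point, measured 45.79, 35.77 and 30.13 FPKM. U2AF2, which reads the 3' splice site, measured 110.44, 89.44 and 79.39 FPKM. SNRNP40, of the U5 snRNP, measured 58.41, 49.44 and 44.28 FPKM. All 4 were highest with vehicle and lowest at 10 µM.

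Of 12 spliceosomal helicase genes, 9 stood below vehicle at 5 µM BAS and 7 at 10 µM BAS, against 46.6% and 43.3% of all measured genes, and the medians were -0.18 and -0.20. DHX15, which takes spliceosomes apart, measured 63.45, 37.94 and 37.39 FPKM. DDX39B, which also serves mRNA export, measured 174.4, 144.71 and 113.33 FPKM. AQR measured 13.08, 10.19 and 10.23 FPKM. DHX38 measured 19.63, 17.37 and 16.32 FPKM. All 4 were highest with vehicle. At 5 µM 1 of the 12, DHX15, was at least 1.5-fold lower, against 1.6% of all measured genes. At 10 µM 2 of the 12 were, DHX15 and DDX39B, against 3.44%.

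Of 42 general splicing regulators outside the families, 32 were below vehicle at each dose, against 46.6% of all measured genes at the lower dose and 43.3% at the higher, with medians of -0.16 and -0.15. At least 1.5-fold lower were 4 at 5 µM and 3 at 10 µM, against 1.6% and 3.44% of all measured genes. MBNL1, a muscleblind regulator gene, measured 37.53, 24.44 and 23.04 FPKM. NONO, a paraspeckle protein gene, measured 269.27, 199.94 and 169.35 FPKM. PTBP2, the neuronal polypyrimidine tract protein gene, measured 7, 4.19 and 4.12 FPKM. These were highest with vehicle and lowest at 10 µM. ESRP1, an epithelial splicing regulator gene, measured 0.23, 1.64 and 2.49 FPKM. In this list it alone was at least 2-fold higher at 5 and 10 µM, against 0.539% and 1.31% of all measured genes. Its level was low throughout, and it passed the limit on the mean through the treated libraries alone, so a difference of this sign was built into its entry. The epithelial markers were lower after BAS, with EPCAM at 0.24, 0.03 and 0.03 FPKM and CDH1 at 0.61, 0.28 and 0.27 FPKM, and their part was not tested.

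Among 6 neuronal regulators past the limit, the median was -0.04 at 5 µM and -0.19 at 10 µM, or 0.00 at 10 µM when all 13 listed genes entered. NOVA1 measured 19.6, 15.14 and 11.5 FPKM. RBFOX3 measured 6.78, 6.76 and 4.5 FPKM. NOVA2 measured 4.5, 4.2 and 3.34 FPKM. All 3 were lowest at 10 µM. ELAVL3, an RNA-binding protein gene of neurons, was highest there, at 4.95, 5.15 and 7.04 FPKM.

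The exon junction and nonsense-mediated decay genes had medians of -0.18 and -0.17, with 10 of 15 below vehicle at 5 µM and 11 of 15 at 10 µM, against 46.6% and 43.3% of all measured genes. MAGOHB, an exon junction subunit gene, measured 8.86, 6.54 and 4.25 FPKM. SMG9 measured 17.63, 13.39 and 10.69 FPKM. SMG6, the endonuclease of the decay route, measured 8.89, 7.71 and 5.99 FPKM. UPF1, its helicase, measured 40.63, 31.69 and 29.37 FPKM. Each of these was highest with vehicle and lowest at 10 µM.

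The minor spliceosome removes a rare class of introns, and its 11 genes had medians of 0.05 and 0.03 that changed sign under other settings. ARMC7 measured 10.4, 5.76 and 3.88 FPKM. It was the 1 gene of the 11 at least 2-fold lower at 10 µM, against 0.643% of all measured genes. SNRNP48 measured 4.9, 3.57 and 3.09 FPKM. SCNM1 measured 16.85, 20.64 and 24.84 FPKM. CCDC84 measured 3.63, 5.02 and 5.7 FPKM. The first pair was highest with vehicle and the second pair lowest with it.

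Of 13 other kinases and phosphatases tied to SR proteins, 7 were below vehicle at each dose, a share near the 46.6% and 43.3% of all measured genes. Their medians were -0.16 at 5 µM, which turned to 0.045 with GC and length trends taken out, and -0.04 at 10 µM. CDK12, a kinase of RNA polymerase II, measured 17.63, 11.36 and 11.95 FPKM. PPP1CC, a catalytic subunit of protein phosphatase 1, measured 86.85, 66.05 and 64.3 FPKM. DYRK1A measured 16.34, 13.67 and 12.42 FPKM. These were highest with vehicle. DYRK3, which dissolves nuclear condensates, was highest at 10 µM, at 11.12, 12.07 and 15.67 FPKM.

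**Figure D5:**
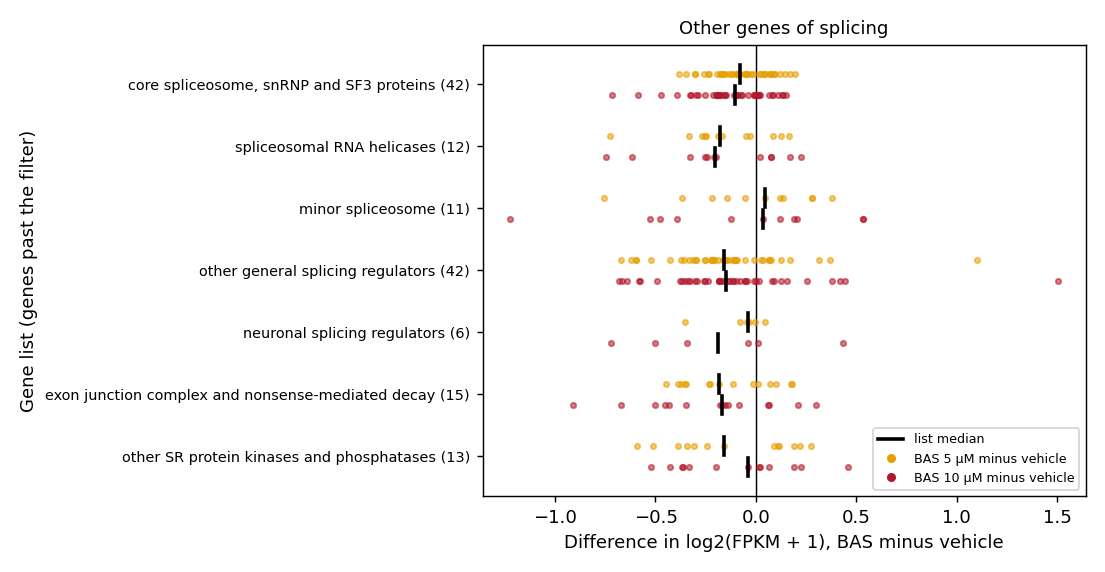
Difference in log2(FPKM + 1), BAS minus vehicle, of the other splicing genes past the limit, by list, at 5 µM (orange, upper row of each list) and 10 µM (red, lower row), with list medians as black bars. Most medians lie left of 0, the points far right are ESRP1, which passed the limit through the treated libraries alone and had 0.23 FPKM with vehicle, and the point furthest left is ARMC7 at -1.22.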

How the data were processed

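RNA of 3 H446 libraries, 1 each with vehicle, 5 µM BAS and 10 µM BAS for 48 h, was sequenced as single-end reads of 50 bases, per the labels' protocols. The authors deposited FPKM per gene symbol with 2 decimals, per the file headers. Trim Galore, BWA, Bowtie2, Cufflinks, Cuffdiff and build hg19 are named in the submitters' processing notes. The role and version of each tool, the annotation and the scaling of libraries to each other were not given in the sources used here. Per the file headers, treated values stand under the codes ASB85 and ASB810, and that these mean 5 and 10 µM BAS could not be checked. Depth is unknown, so no counting error can be given.

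Of 16795 rows, 2 duplicated symbols were summed. Differences are log2(FPKM + 1), taken over the 11512 genes that averaged 1 FPKM or more, and called at 2-fold and 1.5-fold. The design had allowed for FPKM or RPKM. The members and gene lists were chosen with earlier results of these data known. Named genes are all SRSF, SRPK and CLK genes, and the 5 highest and 5 lowest HNRNP and RBM genes at each dose, with the 3 of the highest level, those past 1.5-fold and those under the limit. Up to 4 genes of each other list were named too, those with the largest absolute difference at 10 µM. The HNRNP and RBM genes outside this rule were named to account for every member, after their values were seen, and the counts in the lowest and highest 10% of genes were added then. The symbols HNRPDL and HNRPLL, listed as older spellings, matched no row, and CENATAC was matched as CCDC84. Sequence sharing, length and GC content came from the longest coding transcript per symbol in GENCODE 29 (GRCh38), matched by symbol for 11363 genes, with 50-base sequences compared on both strands. Promoters came from RefSeq (GRCh38.p14). The log2 difference and the 1.5-fold call were run on simulated data with set ratios and an assumed spread. The other steps were not tested in this way. Alternatives were a pseudocount of 0.5 or 0.1, a filter at 5 FPKM or none, median-ratio scaling, a common total, quantile normalization, a 4-fold limit, duplicated symbols left out and family means. Removal of GC and length trends and the omission of genes with at least 50% shared 50-base sequences were chosen after seeing the data. Python 3.11.15, numpy 2.4.6, pandas 2.3.3 and matplotlib 3.10.9 were used.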

Additional observations from a re-analysis of the deposited data

How the results depend on the processing

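No paired analysis was possible because each group has 1 library. The limits are 1 library per group, an unknown depth and values per gene that pool RNA forms. Over the alternatives, the median at 10 µM ranged from -0.39 to -0.31 for SRSF, from -0.34 to -0.24 for HNRNP and from -0.10 to -0.0013 for RBM genes. Genes at least 1.5-fold lower at 10 µM numbered 3 to 8. Genes below vehicle numbered 47 to 60 at 5 µM and 46 to 55 at 10 µM, over settings that include changes in which genes enter. Values moved as follows, and, except where a filter changed which genes entered, the cause was not tested. Of the counts at 10 µM, genes at least 1.5-fold lower were 8 with median-ratio scaling and 7 with quantile normalization, in place of 4, and genes at least 1.5-fold higher were 1 with a pseudocount of 0.1, 1 with 0.5 and 1 with GC and length trends removed, in place of 0. At 5 µM, genes at least 1.5-fold lower were 2 with median-ratio scaling and 2 with a common total, in place of 1, and genes at least 1.5-fold higher were 1 with those trends removed. With the filter at 5 FPKM the CLK median was 0.26 at 5 µM and 0.53 at 10 µM. With no filter, which adds SRPK3, the SRPK median at 10 µM was -0.25, and the median of neuronal splicing regulators was 0.00. The median of the other SR protein kinases and phosphatases at 5 µM was 0.045 with the trends removed, the reverse of -0.16. In 4-fold counts, 0 genes were called.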

Other observations

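Among splicing regulators outside the name rule, chosen here after their values were seen, the SR-like activator gene TRA2B measured 116.94 FPKM with vehicle, 105.52 at 5 µM BAS and 93.07 at 10 µM BAS, and TRA2A at 33.63, 27.18 and 25.83 FPKM. The hnRNP G gene RBMX was at 209.63, 166.47 and 170.69 FPKM and the polypyrimidine tract protein gene PTBP1, which represses neuronal exons, at 242.14, 196.72 and 203.29 FPKM. All 4 were highest with vehicle. SRRM2, which builds nuclear speckles, was at 70.45, 48.69 and 46.84 FPKM, and LUC7L2, a U1-associated factor, at 42.14, 26.11 and 27.84 FPKM. The paraspeckle gene PSPC1 differed in the opposite direction from NONO, at 47.78, 62.04 and 65.33 FPKM, and so did MBNL2 from MBNL1, at 8.33, 8.75 and 11.15 FPKM. The exon junction helicase gene EIF4A3 was above vehicle at 101.41, 114.6 and 117.34 FPKM, as was RBM8A. CASC3, of the same gene list, was above it too, at 37.48, 39.33 and 46.39 FPKM. MAGOHB was below vehicle. The more abundant MAGOH was near vehicle at 5 µM and below it at 10 µM, at 70.91, 71.4 and 63.03 FPKM.

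The read-through symbol RBM14-RBM4, left out by the name rule, measured 3.88 FPKM with vehicle, 5.34 at 5 µM BAS and 3.21 at 10 µM BAS. It was the highest of its 3 values at 5 µM, where RBM14 had its lowest.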
